A study of Mus musculus with 20 samples.

Results

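The genes described here are 9 transcription factors of the enteroendocrine lineage: Neurog3, Neurod1, Insm1, Pax4, Isl1, Nkx2-2, Pax6, Rfx6 and Rfx3. They were taken by name as regulators of endocrine fate, out of 54838 gene rows in the deposited tables, and all 9 were found. RNA was sequenced from mouse C57BL/6 intestine in 20 libraries, 12 of crypt cells, of which 10 are labelled as sorted into Lgr5-high or Lgr5-low gates by their EGFP reporter, and 8 of living cells sorted from intestinal organoids. The question asked of these genes was whether the factors of endocrine commitment changed together with the enteroendocrine hormones.

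In the tissue set, cells labelled Mettl3-/- came from Mettl3fl/fl mice that carried Lgr5-EGFP-IRES-CreERT2 and Villin-CreERT2, so that both Cre drivers act in the intestinal epithelium, and that received tamoxifen (20 mg/ml, 4 days). They were collected at day 3 (1 Lgr5-high and 1 Lgr5-low library), at day 4 (2 libraries in each gate) and at day 6 (2 libraries whose labels name no gate, though the column header of library 1 names a low gate). The WT tissue groups, Lgr5-high and Lgr5-low, had 2 libraries each and are labelled untreated, while the protocol text also describes tamoxifen injection of Mettl3fl/fl mice without Cre. The organoids were grown from mice with the same 3 alleles. Organoids labelled Mettl3-/- had 4-OHT for 2 days and were of 3 kinds with 2 libraries each: with retroviral AKFP (Ascl2, Klf9, Fosb and Purb), with retroviral AKF (Ascl2, Klf9 and Fosb), and with no factor named. The factor lines were selected in puromycin, and the control organoids, labelled wild type, had EtOH for 2 days (2 libraries). Titles of the wild type libraries and of the Mettl3-/- libraries with no factor named also hold the words m3-flag. The AKFP and AKF titles lack these words, and the titles do not say what they stand for. Libraries labelled Mettl3-/- are called KO below. Nothing in the labels ties the libraries within a group to different mice or organoid cultures, so p-values measure only the spread between these libraries, which may be technical.

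Enteroendocrine cells are rare secretory cells of the gut epithelium that make peptide hormones and serotonin. Neurog3 is switched on briefly in a secretory progenitor and commits it to the endocrine fate. Its product acts upstream of Neurod1 and Insm1, and further factors such as Pax4, Isl1, Nkx2-2, Pax6 and Rfx6 act in the differentiation of hormone-making cells. Mettl3 encodes the methyltransferase that places N6-methyladenosine on mRNA.

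RefSeq's promoter table (GRCm38.p6) held 8 start sites for 7 of the 9 genes. Insm1 and Pax4 were not matched in it. The 250 bases before the start were searched on both strands for the E-box letters CAGCTG (its own reverse complement) and CAGATG, which proneural factors of the Neurog3 and Neurod1 class can bind, and for GTTGCC, letters from the site that RFX factors bind. The 2 promoters with CAGCTG, those of Neurog3 and Isl1, are shown because these genes act at the start and in a later step of the lineage, and Isl1 fell in the AKFP organoids described below. Capitals mark CAGCTG.
Neurog3 (chr10:62132840-62133089, + strand): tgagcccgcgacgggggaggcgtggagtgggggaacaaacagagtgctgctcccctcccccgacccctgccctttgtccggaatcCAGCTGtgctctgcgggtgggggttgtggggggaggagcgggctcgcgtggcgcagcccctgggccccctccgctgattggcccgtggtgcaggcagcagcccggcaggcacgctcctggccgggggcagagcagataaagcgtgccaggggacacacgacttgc
Isl1 (chr13:116309689-116309938, − strand): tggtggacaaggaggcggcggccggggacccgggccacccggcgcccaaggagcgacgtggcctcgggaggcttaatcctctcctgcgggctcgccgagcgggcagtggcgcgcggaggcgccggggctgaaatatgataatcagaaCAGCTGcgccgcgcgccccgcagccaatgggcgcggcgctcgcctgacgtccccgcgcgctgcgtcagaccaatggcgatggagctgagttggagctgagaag
CAGCTG was present in 13% of the 32851 promoters of the table, CAGATG in 14.4% and GTTGCC in 10.4%. CAGATG was found in 1 of the 7 genes (Nkx2-2) and GTTGCC in 1 (Pax6). A match describes letters in the window and is no evidence of binding.

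Values are FPKM, fragments counted on a gene scaled by its transcript length and by the mapped fragments of the library. The number of fragments per library, estimated from the smallest steps of the FPKM of 13340 genes with 1 exon and 1 transcript, was about 14900000 to 25500000. Defensin and lysozyme transcripts, products of Paneth cells, took 45.8% of the FPKM sum in day 6 library 1 and 27.6% in day 4 Lgr5-high library 1, against 15.0% to 26.9% in the other 10 tissue libraries and 2.47% to 6.06% in organoids. Day 6 library 1 stands apart by this share, while day 4 Lgr5-high library 1 is next to day 6 library 2 (26.9%), and counts are given below without each of the first 2. Lgr5, the stem cell marker, was at 2.31 and 6.00 FPKM in day 4 Lgr5-high cells and at 0.340 and 1.27 FPKM in day 6 cells, against 10.1 and 10.4 FPKM in WT Lgr5-high cells. Summed over all its exons, Mettl3 was at 2.75 to 4.99 FPKM in KO tissue, against 3.42 to 4.86 FPKM in WT tissue, and at 3.33 to 4.22 FPKM in the 6 KO organoid libraries, against 3.23 and 3.56 FPKM in WT organoids. The deleted exons are not given in the sources used here, and a whole-gene value that overlaps the WT range neither checks nor contradicts an exon deletion. Of the retroviral factors, Ascl2 was at 19.0 and 19.2 FPKM in organoids labelled AKFP and 36.8 and 38.6 FPKM in those labelled AKF, against 12.4 and 12 FPKM in KO organoids without factors. Klf9 was at 36.0 and 38.4 FPKM with AKFP and 11.1 and 10.7 FPKM with AKF, against 7.79 and 7.90 FPKM in KO. Fosb was at 12.4 and 9.77 FPKM with AKFP and 25.8 and 26.7 FPKM with AKF, against 38.2 and 25.4 FPKM in KO. Purb was at 19.5 and 16.5 FPKM with AKFP and 15.9 and 16.8 FPKM with AKF, against 14.3 and 17.1 FPKM in KO. Ascl2 and Klf9 were thus above KO under both labels, Fosb was not, and Purb overlapped between AKFP, AKF and KO, so AKFP and AKF are used below as the names on the labels.

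Neurog3, the factor of commitment, was at 18.4 and 15.0 FPKM in KO Lgr5-high cells at day 4, against 9.18 and 4.28 FPKM in WT Lgr5-high cells. Both KO libraries were above both WT libraries, as they were for 24.9% of all tested genes. In Lgr5-low cells it was at 19.1 and 11.6 FPKM in KO at day 4, against 13 and 5.96 FPKM in WT, and these groups overlapped. At day 3 the single KO libraries had 7.50 FPKM (Lgr5-high) and 9.83 FPKM (Lgr5-low), both inside the range of the WT libraries of their gate. At day 6 the KO libraries had 8.09 and 21.6 FPKM, the lower of them in the library with the highest Paneth share.

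Neurod1, a target of Neurog3 that is kept on in many maturing endocrine cells, was at 4.03 and 14.3 FPKM in KO Lgr5-high cells at day 4, against 3.15 and 1.19 FPKM in WT Lgr5-high cells. Insm1, a zinc finger repressor of the same step, was at 6.11 and 19.2 FPKM in KO, against 5.18 and 2.48 FPKM in WT. In both genes both KO libraries were above both WT libraries, as they were for 24.9% of all tested genes. KO library 1 lay close to the WT libraries and KO library 2 far above them. In Lgr5-low cells Neurod1 was at 8.29 and 14.5 FPKM in KO, against 5.99 and 3.78 FPKM in WT. Insm1 was at 13.2 and 17.9 FPKM in KO Lgr5-low cells, against 8.99 and 4.62 FPKM in WT. Here too both KO libraries were above both WT libraries, as they were for 29.1% of all tested genes.

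**Figure D1:**
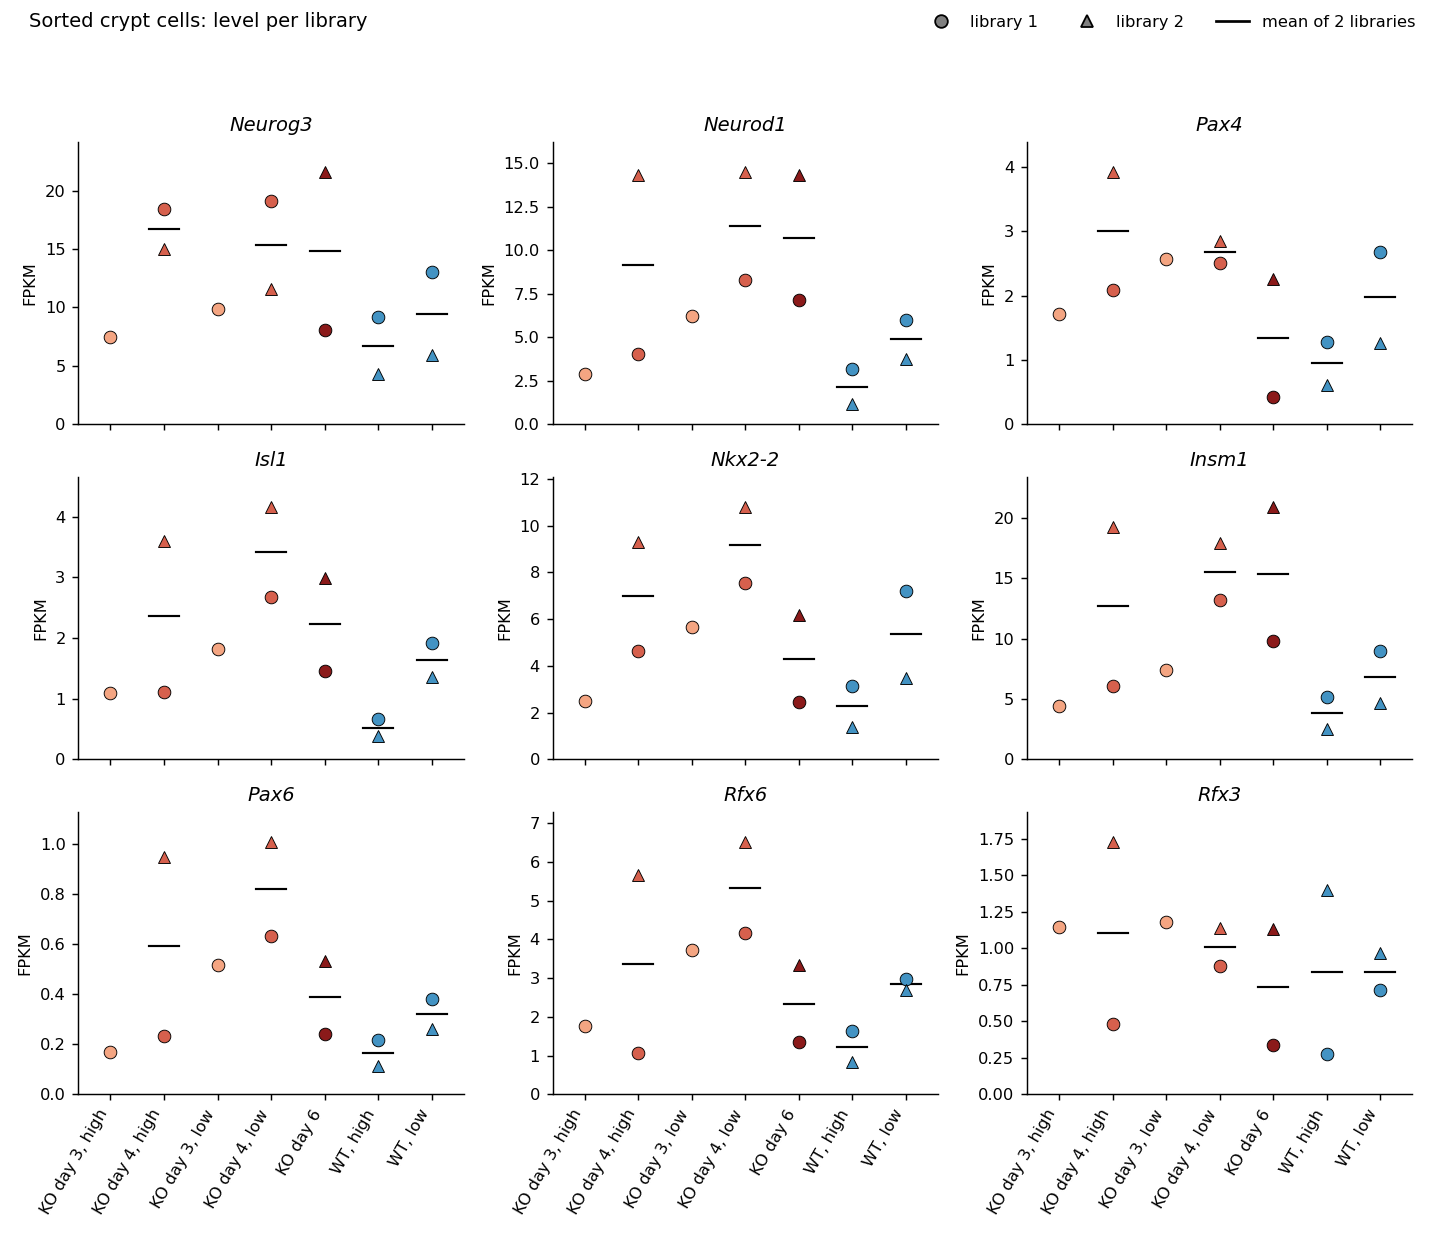
FPKM of the 9 genes in each sorted crypt library (circle, library 1; triangle, library 2; bar, mean of 2 libraries; the day 3 groups have 1 library), with KO groups at left and WT groups at right. In day 4 Lgr5-high cells the triangle lies above the circle for 8 of the 9 genes, and for Neurog3 (18.4 and 15.0 FPKM) it is the other way round.

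Among the factors of subtype and maturation, the same split between the KO libraries was seen. Nkx2-2, a homeodomain factor, was at 4.64 and 9.32 FPKM in KO Lgr5-high cells at day 4, against 3.14 and 1.40 FPKM in WT. Isl1, a LIM-homeodomain factor, was at 1.11 and 3.60 FPKM in KO, against 0.657 and 0.389 FPKM in WT. Pax4, a paired-box factor of early endocrine progenitors, was at 2.09 and 3.92 FPKM in KO, against 1.28 and 0.613 FPKM in WT. In each of these genes both KO libraries were above both WT libraries, as they were for 24.9% of all tested genes. Rfx6, a winged-helix factor needed for peptide hormone expression, was at 1.06 and 5.66 FPKM in KO, against 1.64 and 0.825 FPKM in WT, so KO library 1 fell between the WT libraries.

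Pax6, a paired-box factor of hormone gene transcription, stayed near or under 1 FPKM. It was at 0.233 and 0.951 FPKM in KO Lgr5-high cells at day 4, against 0.219 and 0.114 FPKM in WT, and at 0.633 and 1.01 FPKM in KO Lgr5-low cells, against 0.380 and 0.263 FPKM in WT. It did not reach 1 FPKM in 2 libraries and was not tested. Rfx3, which is known above all as a regulator of cilia genes and also acts in pancreatic endocrine cells, varied from 0.273 to 1.40 FPKM within the WT Lgr5-high pair alone. It was at 0.481 and 1.73 FPKM in KO Lgr5-high cells at day 4, which overlaps the WT pair.

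Tests used limma on log2(FPKM + 1) over the genes that reached 1 FPKM in at least 2 libraries, 12899 in tissue, with Benjamini-Hochberg adjustment over all of them and a threshold of adjusted p under 0.05. Because 1 is added before the log, a difference understates the fold of a low gene. In the Lgr5-high gate at day 4, 0 of the 8 tested factors passed, where 1.05% of all tested genes did. At an unadjusted p under 0.05 there were 6 of 8. Estimates of all 8 were positive, with a median log2 difference of 1.15 against -0.02 over all tested genes. Neurod1 had the largest (1.54 ± 0.57 SE, adjusted p = 0.218), followed by Insm1 (1.37 ± 0.55, adjusted p = 0.251) and Neurog3 (1.27 ± 0.51, adjusted p = 0.255). Both KO libraries were above both WT libraries for 6 of the 8, where 24.9% of all tested genes were.

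Files of the number 1 tissue libraries share a column style that the number 2 files lack, which may mark a batch, although the numbers were not shown to pair libraries. Set against the WT library of the same number, Neurod1 differed in Lgr5-high cells by 0.28 on the log2 scale for number 1 and 2.80 for number 2. Insm1 differed by 0.20 and 2.54, and Rfx6 by -0.35 and 1.87. Neurog3 differed by 0.93 and 1.60. Other pairs of libraries give other values, and no test was run within a number. The part of the Paneth share of KO library 1 (27.6%) in these values was not tested.

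In the Lgr5-low gate at day 4, 0 of the 8 passed (0.473% of all tested genes passed), and none had a p below 0.05 before adjustment (0 of 8). The median log2 difference was 0.71, with Insm1 at 1.13 ± 0.55 SE (adjusted p = 0.417) and Neurod1 at 1.05 ± 0.57 (adjusted p = 0.472). Whether the KO difference itself was unequal between the gates was tested as an interaction, which 0 of the 8 passed (smallest adjusted p = 0.963, 0.0155% of all tested genes passed, 0 with an unadjusted p under 0.05). Averaged over both gates, 0 of 8 passed while 7.43% of all tested genes did (4.71% as higher), and 6 of 8 had an unadjusted p under 0.05. Neurod1 (1.3 ± 0.40 SE, adjusted p = 0.0881), Isl1 (0.89 ± 0.28, adjusted p = 0.0895) and Insm1 (1.25 ± 0.39, adjusted p = 0.0896) came nearest. Without day 4 Lgr5-high library 1, 4 passed: Rfx6, Neurod1, Isl1 and Insm1.

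More genes of the hormone and granule list passed. Of its 20 genes 19 were tested, and 16 were higher in KO at day 4 averaged over gates, with a median log2 difference of 1.95, beside 0 of 8 factors with a median of 0.93. Sst, the somatostatin gene, differed by 2.24 ± 0.29 SE (adjusted p = 0.00563) and Chga, the chromogranin A gene of secretory granules, by 2.31 ± 0.31 (adjusted p = 0.00599). The count of 16 was 19 without day 4 Lgr5-high library 1 and 15 without day 6 library 1. It was 5 with no filter on low values, 9 and 2 without WT Lgr5-high library 1 and 2, 7 and 2 without WT Lgr5-low library 1 and 2, and 6 without day 4 Lgr5-low library 2. In Lgr5-high cells alone 6 of 19 hormone genes passed, all higher, with a median of 2.79. This smaller count was 0 with no filter or with the compared groups alone, 2 with equal FPKM sums, 0 to 5 with a library left out and 13 with the library number as a block. With 0.1 added in place of 1, the Lgr5-high medians were 1.58 for the factors and 2.92 for the hormone list. With 1 added they were 1.15 and 2.79. The part of the added value in the gap between the lists was not tested. Per library, Chga was at 106 and 190 FPKM in KO Lgr5-high cells, against 25.5 and 10.7 FPKM in WT. The difference between the 2 lists was not tested. In bulk RNA, a change in the number of endocrine cells and a change in RNA per cell cannot be told apart.

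**Figure D2:**
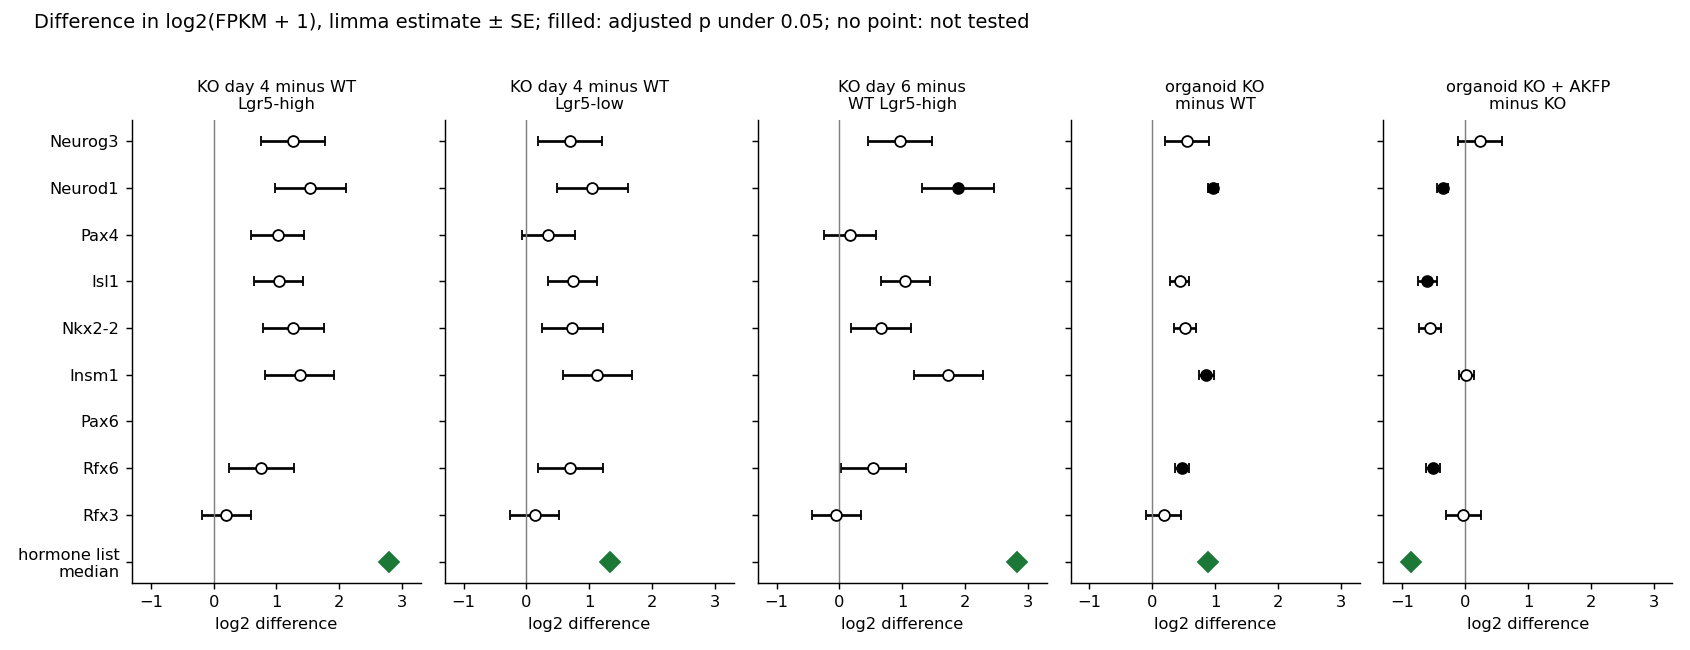
Difference in log2(FPKM + 1) of each gene in 5 comparisons (limma estimate ± SE; filled points passed at an adjusted p under 0.05; genes with no point were not tested), with the median of the hormone and granule list as a diamond. In the 3 tissue panels the diamond (2.79, 1.33 and 2.82) lies to the right of every factor's point, and in the AKFP panel Rfx6, Neurod1 and Isl1 lie left of 0 while Insm1 lies at 0.02.

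Genes around the members gave mixed counts at day 4 averaged over gates. Of 13 other endocrine factors 11 were tested and 3 rose: Fev, a factor of serotonin-making cells (1.72 ± 0.31 SE, adjusted p = 0.0170), Hhex (0.71 ± 0.17, adjusted p = 0.0385) and Lmx1a (1.08 ± 0.27, adjusted p = 0.0488). Of 7 genes of the earlier secretory choice 2 rose, Atoh1, which opens the secretory fate (1.09 ± 0.25, adjusted p = 0.0379), and Spdef, a goblet and Paneth factor (1.06 ± 0.26, adjusted p = 0.0423). With no filter 0 of these 5 genes passed, and without either WT Lgr5-high library 2 or WT Lgr5-low library 2 likewise 0. Of 8 further RFX family genes 5 were tested and 0 passed. The smallest p was that of Rfx1 (unadjusted p = 0.105), with a log2 difference of -0.26.

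Markers of other cells were set beside these values in the same comparison. Of 7 goblet markers 5 rose, and their summed level was 6440 to 6720 FPKM in KO Lgr5-high cells at day 4, against 1850 to 2280 FPKM in WT. Summed tuft markers were at 29.7 to 95.3 FPKM in KO, against 8.07 to 15.0 FPKM in WT, with 0 of 6 tested markers passing. Summed Paneth markers were at 39300 to 74600 FPKM in KO, against 34800 to 48300 FPKM in WT, with 0 of 7 passing. Of 8 enterocyte markers Apoa1 rose (1.62 ± 0.40 SE, adjusted p = 0.0465), and their sum was 462 to 929 FPKM in KO Lgr5-high cells, against 239 to 318 FPKM in WT. Of 7 stromal and endothelial markers 1, Vim, was tested and it rose (2.02 ± 0.40, adjusted p = 0.0214), with a sum of 6.05 to 18.9 FPKM, against 1.03 to 2.09 FPKM in WT. Of 7 immune markers 3 were tested and 0 passed, with a sum of 440 to 555 FPKM, against 202 to 284 FPKM in WT. Neurons also express Isl1 and Insm1. Of 7 enteric neuron markers 1 (Tubb3) was expressed enough to be tested, and it rose, with a sum of 1.73 to 4.32 FPKM over the 7 in KO Lgr5-high cells, against 0.546 to 0.582 FPKM in WT. The part of RNA from these other cells in the factors' differences was not tested.

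At day 6 Neurod1 was at 7.12 and 14.3 FPKM in KO, against 3.15 and 1.19 FPKM in WT Lgr5-high cells. Insm1 was at 9.83 and 20.9 FPKM in KO, against 5.18 and 2.48 FPKM. In both genes both KO libraries were above both WT libraries, as they were for 27.5% of all tested genes. Neurod1 passed (1.89 ± 0.57 SE, adjusted p = 0.0446) and was the only one of 8 tested factors to do so, where 10.1% of all tested genes passed as higher. Insm1 (1.73 ± 0.55, adjusted p = 0.0537) and Isl1 (1.05 ± 0.39, adjusted p = 0.0866) did not. The call on Neurod1 was lost without any 1 of the 2 WT Lgr5-high, the 2 WT Lgr5-low, the 2 day 4 Lgr5-low or the 2 day 6 libraries (0 of 8 passed). Without day 4 Lgr5-high library 1, or without library 2 of that group, Neurod1, Isl1 and Insm1 passed. Neurod1 also missed the threshold with no filter (adjusted p = 0.125) and with equal FPKM sums (adjusted p = 0.108), and Insm1 passed with the library number as a block (adjusted p = 0.0468).

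Other factors overlapped between day 6 and WT Lgr5-high cells. Pax4 was at 0.428 and 2.26 FPKM in KO, against 1.28 and 0.613 FPKM in WT. Nkx2-2 was at 2.44 and 6.17 FPKM in KO, against 3.14 and 1.40 FPKM in WT. Rfx6 was at 1.34 and 3.35 FPKM in KO, against 1.64 and 0.825 FPKM in WT. Insm1 was 7.32 and 6.22 times the FPKM of Rfx6 in the 2 day 6 libraries, against 3.16 and 3 times in WT Lgr5-high cells and 3.01 and 1.71 times in WT Lgr5-low cells. At day 4 Insm1 was 5.75 and 3.39 times Rfx6 in KO Lgr5-high cells. In KO Lgr5-low cells it was 3.19 and 2.74 times Rfx6. This ratio was not tested. The hormone list rose in 17 of 19 tested genes against WT Lgr5-high cells, with a median of 2.82 beside 0.81 for the 8 factors. It was 16 without day 6 library 1 and 9 without WT Lgr5-high library 2. The median over all tested genes was -0.16 in this comparison. Enterocyte markers rose in 6 of 8 genes (median 3.04), goblet markers in 6 of 7 (2.66) and Paneth markers in 2 of 7 (1.33), and stem cell markers fell in 6 of 6 (-2.63). Because the gate of the day 6 cells is not labelled, a difference between gates is part of what this comparison can hold. Between the WT gates all 19 hormone genes had lower estimates in Lgr5-high than in Lgr5-low cells (median -1.44), and 1, Sst, passed.

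Lgr5 in day 6 cells was near its level in WT Lgr5-low cells (0.340 and 1.27 FPKM at day 6, against 0.715 and 0.974 FPKM). Lgr5 was also lower in day 4 KO than in WT cells of the Lgr5-high gate, so its level does not show the gate of the day 6 cells. Against WT Lgr5-low cells 0 of 8 factors passed (11.5% of all tested genes passed). An unadjusted p under 0.05 was found in 0 factors, and the median log2 difference was 0.07. Insm1, at 9.83 and 20.9 FPKM in KO against 8.99 and 4.62 FPKM in WT Lgr5-low cells, had the smallest p (1.04 ± 0.55 SE, adjusted p = 0.266). Of the 19 hormone genes 4 rose, among them Pyy, which encodes peptide YY (2.93 ± 0.57, adjusted p = 0.0145), and Nts, the neurotensin gene (3.40 ± 0.67, adjusted p = 0.0151). This count was 0 with no filter and 0 without day 6 library 1 or without either WT Lgr5-low library, 1 without day 6 library 2 and 7 without either day 4 Lgr5-high library. In WT tissue itself the factors were lower in Lgr5-high than in Lgr5-low cells in all 8 estimates (median -0.74). Isl1 (-0.79 ± 0.39 SE, adjusted p = 0.427) and Nkx2-2 (-0.94 ± 0.48, adjusted p = 0.434) had the smallest p. Of the 8 factors 0 passed, where 1.2% of all tested genes did, and 0 had an unadjusted p under 0.05. Set within library numbers 1 and 2, this gate difference was -0.69 and -0.69 for Insm1 and -0.99 and -0.89 for Nkx2-2. It was -0.60 and -1.02 for Rfx6, and only Rfx3 changed sign (-0.43 and 0.28). No test was run within a number.

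At day 3, with 1 KO library in each gate, no test was run. In Lgr5-high cells 6 of the 9 factors lay inside the range of the 2 WT libraries, where 26.5% of all tested genes did, and the median log2 difference from the WT mean was 0.30, against 0.0458 over all tested genes. In Lgr5-low cells 5 of 9 lay inside, where 27.6% of all tested genes did, with a median of 0.20, against 0.0440. Of the 20 hormone and granule genes, 3 in Lgr5-high and 1 in Lgr5-low cells lay inside the WT range, with medians of 0.60 and 0.68. Without WT Lgr5-high library 2 the factors' median in that gate was -0.06, and without WT Lgr5-low library 2 it was -0.04 in the low gate.

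Ordered by mean level in tissue, Neurog3 was highest in day 4 Lgr5-high KO cells (16.7 ± 2.38 FPKM, SD, n = 2) and lowest in WT Lgr5-high cells (6.73 ± 3.46 FPKM, n = 2). Every pair of neighbours in that order overlapped. Neurod1, Insm1, Isl1, Nkx2-2, Pax6 and Rfx6 were highest in day 4 Lgr5-low KO cells. All 6 had their lowest mean in WT Lgr5-high cells. For Insm1 these means were 15.6 ± 3.29 FPKM in day 4 Lgr5-low KO cells and 3.83 ± 1.91 FPKM in WT Lgr5-high cells (SD, n = 2 each).

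In organoids Neurod1 was at 5.40 and 6.05 FPKM in KO, against 2.48 and 2.42 FPKM in WT. Insm1 was at 8.05 and 10.2 FPKM in KO, against 4.80 and 4.32 FPKM in WT. Rfx6 was at 2.39 and 2.90 FPKM in KO, against 1.5 and 1.73 FPKM in WT. In these 3 genes both KO libraries were above both WT libraries (36.6% of all tested genes were), and the libraries of a group lay close together.

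These 3 rose among the 7 factors that could be tested in organoids, where 16.7% of the 12657 tested genes passed as higher and 28.2% in either direction. Neurod1 differed by 0.96 ± 0.08 SE on the log2 scale (adjusted p = 0.000662), Insm1 by 0.86 ± 0.12 (adjusted p = 0.00295) and Rfx6 by 0.48 ± 0.11 (adjusted p = 0.0187). Nkx2-2 (3.90 and 5.11 FPKM in KO, against 2.65 and 3.01 FPKM in WT) and Isl1 (1.07 and 1.06 FPKM, against 0.529 and 0.519 FPKM) were apart between groups but did not pass (adjusted p = 0.0640 and 0.0736). Neurog3 was at 14.7 and 7.97 FPKM in KO, against 6.52 and 7.68 FPKM in WT, with a difference of 0.55 ± 0.35 (adjusted p = 0.279). Its 2 KO libraries differed more from each other than KO library 2 did from WT. Leaving out 1 library at a time left 2 to 4 factors past the threshold, and Rfx6 missed it with no filter (adjusted p = 0.0589) and with equal FPKM sums (adjusted p = 0.0552).

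Rfx3 overlapped between the organoid groups (0.843 and 0.964 FPKM in KO, against 0.300 and 1.18 FPKM in WT). Pax4 and Pax6 fell under the filter. Pax4 was at 0.463 and 0.867 FPKM in KO, against 0.699 and 0.478 FPKM in WT. Pax6 was at 0.436 and 0.365 FPKM in KO, against 0.224 and 0.196 FPKM in WT. Both its KO libraries were thus above both WT libraries, as they were for 36.6% of all tested genes. In the fit with no filter Pax6 differed by 0.21 ± 0.05 SE (adjusted p = 0.05 when rounded).

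Hormone genes were higher in KO organoids too. Of 19 tested hormone and granule genes 13 were higher, with a median of 0.88 beside 0.52 for the 7 factors and 0.01 for all tested genes. Cck, the cholecystokinin gene, differed by 1.52 ± 0.12 SE (adjusted p = 0.000535) and Gcg, which encodes proglucagon, by 1.41 ± 0.13 (adjusted p = 0.000740). Of the other endocrine factors 7 were tested, and Fev, Foxa1 and Lmx1a rose. Atoh1 rose by 0.57 ± 0.07 and Notch1, a receptor that restrains the secretory fate, fell by 0.45 on the log2 scale (adjusted p = 0.00211 and 0.0290). Notch1 missed the threshold with no filter (adjusted p = 0.0749) and with the compared groups alone (adjusted p = 0.0613). All 7 goblet markers rose as well, summed to 3040 to 3280 FPKM in KO, against 1520 to 2030 FPKM in WT. Paneth markers rose in 4 of 7. Enterocyte markers fell in 5 of 7 tested genes (median -1.06) and stem cell markers in 3 of 6. Tubb3 (0.50 ± 0.12 SE, adjusted p = 0.0255) and Vim (0.77 ± 0.09, adjusted p = 0.00197) rose. The part of other cells in the factors' differences was not tested.

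**Figure D3:**
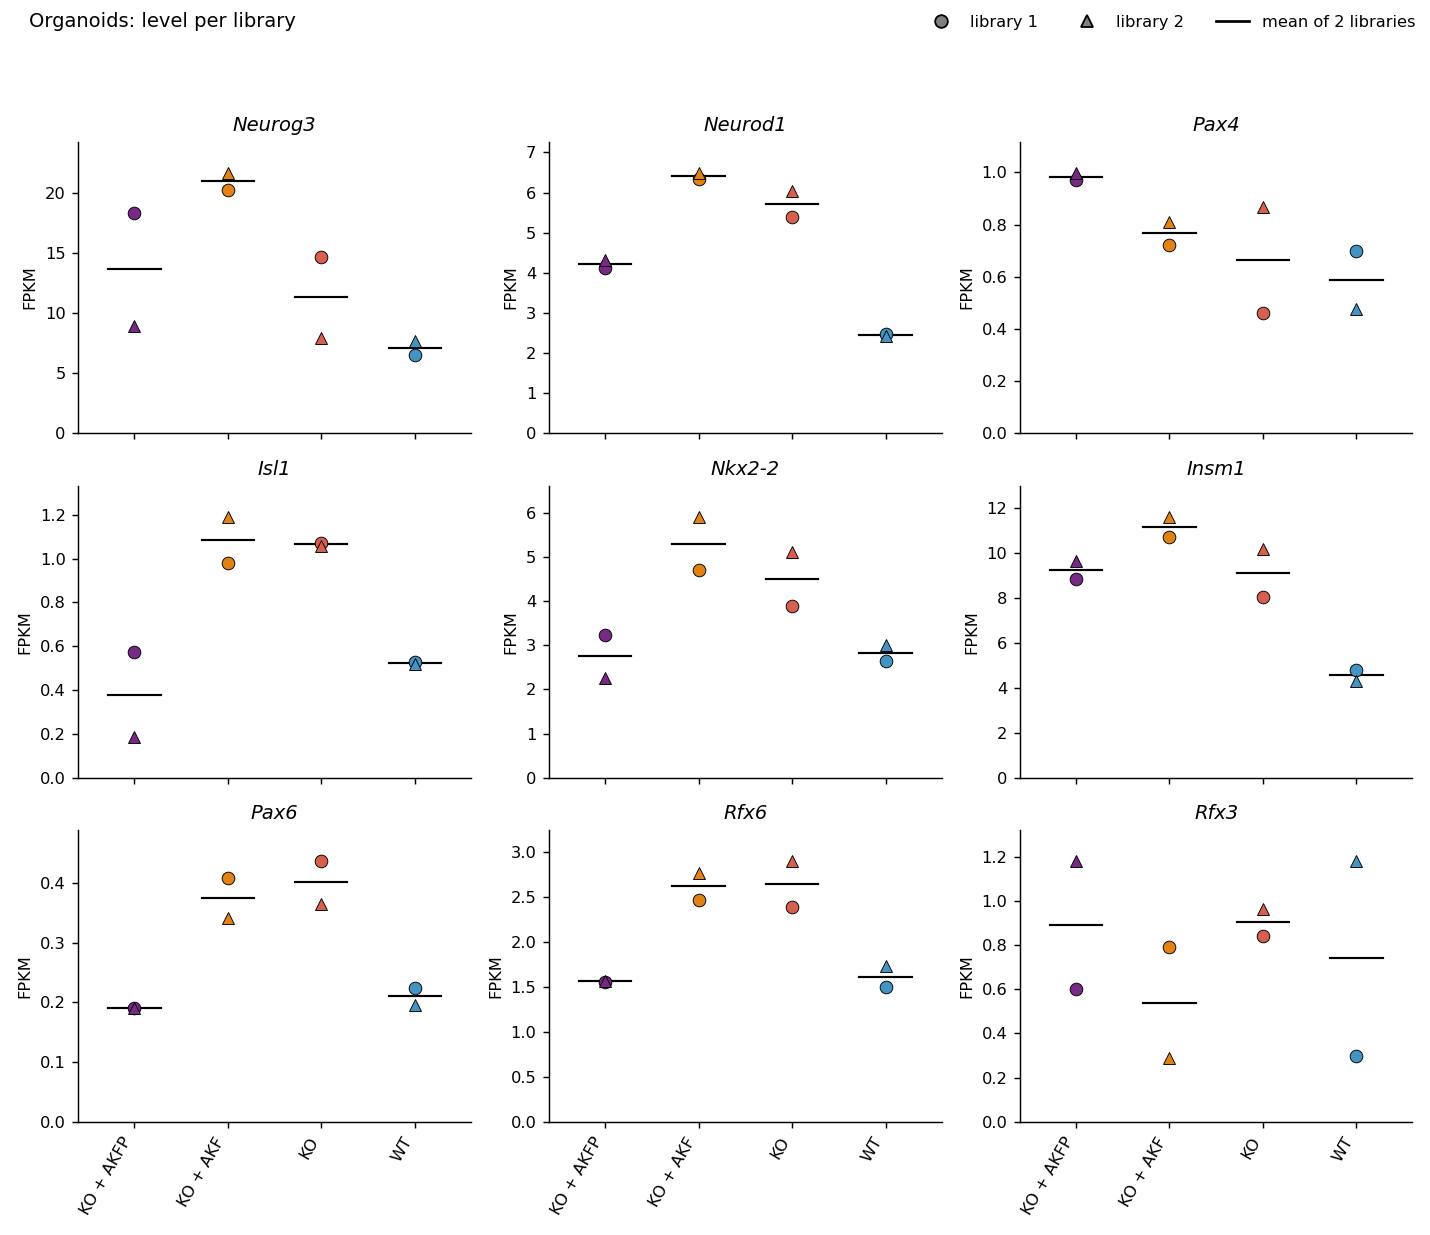
FPKM of the 9 genes in each organoid library (circle, library 1; triangle, library 2; bar, mean), with KO + AKFP, KO + AKF, KO and WT from left to right. Insm1 stays at 8.05 to 11.6 FPKM in all 6 KO libraries, while the Rfx6 libraries with AKFP (1.56 and 1.57 FPKM) lie beside those of WT.

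With AKFP some of the factors were lower than in KO organoids without factors. Rfx6 was at 1.56 and 1.57 FPKM with AKFP, against 2.39 and 2.90 FPKM in KO organoids without factors. Neurod1 was at 4.12 and 4.33 FPKM with AKFP, against 5.40 and 6.05 FPKM in KO. Isl1 was at 0.572 and 0.184 FPKM with AKFP, about 45 and 15 fragments, against 1.07 and 1.06 FPKM in KO. In all 3 genes both AKFP libraries were below both KO libraries, as they were for 31.6% of all tested genes.

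These 3 of 7 factors fell, where 13.2% of all tested genes passed as lower and 26.4% in either direction. The log2 differences were -0.51 ± 0.11 SE for Rfx6 (adjusted p = 0.0185), -0.36 ± 0.08 for Neurod1 (adjusted p = 0.0210) and -0.60 ± 0.15 for Isl1 (adjusted p = 0.0308). Nkx2-2, at 3.24 and 2.27 FPKM with AKFP against 3.90 and 5.11 FPKM in KO, did not pass (-0.56 ± 0.17, adjusted p = 0.0532). The calls were sensitive to single libraries. Without KO library 1 only Rfx6 passed, without AKFP library 1 only Isl1, and without KO library 2 or AKFP library 2 none of the 7 did (0 passed). With no filter Rfx6 and Isl1 missed the threshold (adjusted p = 0.0557 and 0.0664), with the compared groups alone Isl1 did (adjusted p = 0.0668), and with equal FPKM sums Neurod1 did (adjusted p = 0.0914). Pax6, which the filter left out, was at 0.19 and 0.19 FPKM with AKFP, against 0.436 and 0.365 FPKM in KO, and passed with no filter (-0.23 ± 0.05 SE, adjusted p = 0.0434). Pax4, also left out by the filter, was at 0.970 and 0.998 FPKM with AKFP, against 0.463 and 0.867 FPKM in KO. Rfx3 was at 0.602 and 1.18 FPKM with AKFP, against 0.843 and 0.964 FPKM in KO, and overlapped (-0.03 ± 0.28, adjusted p = 0.952).

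Insm1 and Neurog3 gave no such difference. Insm1 was at 8.84 and 9.64 FPKM with AKFP, against 8.05 and 10.2 FPKM in KO, with a difference of 0.02 ± 0.12 SE (adjusted p = 0.886). Neurog3 was at 18.4 and 8.97 FPKM with AKFP, against 14.7 and 7.97 FPKM in KO, with a difference of 0.23 ± 0.35 (adjusted p = 0.647). For Neurog3 the 2 libraries of each group lay far apart, so its interval is wide. The ratio of Insm1 to Rfx6 within a library needs no scaling between libraries. Insm1 was 5.67 and 6.15 times Rfx6 with AKFP and 4.31 and 4.19 times with AKF, against 3.37 and 3.50 times in KO and 3.19 and 2.50 times in WT. The AKFP ratios were above those of the 6 other libraries, and the difference was not tested.

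Set against WT, 2 of the 7 tested factors passed as higher in AKFP organoids, a share near that of all tested genes (24.6%). Neurod1 was at 4.12 and 4.33 FPKM with AKFP, against 2.48 and 2.42 FPKM in WT (0.60 ± 0.08 SE, adjusted p = 0.00164). Insm1 was at 8.84 and 9.64 FPKM with AKFP, against 4.80 and 4.32 FPKM in WT (0.88 ± 0.12, adjusted p = 0.00149). Rfx6 (-0.03 ± 0.11, adjusted p = 0.856), Nkx2-2 (-0.04 ± 0.17, adjusted p = 0.873) and Isl1 (-0.16 ± 0.15, adjusted p = 0.431) had estimates near 0. Neurog3, at 18.4 and 8.97 FPKM with AKFP against 6.52 and 7.68 FPKM in WT, did not pass (0.78 ± 0.35, adjusted p = 0.111). Rfx3 differed by 0.15 ± 0.28 (adjusted p = 0.698). Of the 19 tested hormone and granule genes, 6 passed as higher and 6 as lower in AKFP organoids than in WT, with a median of -0.02. Over all 12657 tested genes, 3114 passed as higher and 2377 as lower. A median near 0 thus did not mean that each hormone gene was at its WT level. The comparisons of AKFP and of KO with WT share the WT libraries, and those of AKFP with KO and of KO with WT share the KO libraries, so their values are not independent.

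The hormone list fell with AKFP in 14 of 19 genes and rose in 3, against KO organoids, with a median of -0.86 beside -0.36 for the 7 factors. Pcsk1, which encodes a prohormone convertase, differed by -1.80 ± 0.09 SE (adjusted p = 8.70e-05) and Sct, the secretin gene, by -1.46 ± 0.13 (adjusted p = 0.00109). The 3 that rose were Nts (2.65 ± 0.18, adjusted p = 0.000428), Pyy and Gcg. Mean Pyy was 9.82 FPKM with AKFP, against 2.72 FPKM in KO, and mean Gcg was 121 FPKM, against 87.8 FPKM. Chga was at 42.1 and 36.1 FPKM with AKFP, against 81.3 and 81.1 FPKM in KO. Among the other endocrine factors Fev (-0.82 ± 0.07, adjusted p = 0.00103) and Lmx1a (-0.86 ± 0.13, adjusted p = 0.00596) fell and Foxa1 rose (0.95 ± 0.10, adjusted p = 0.00202). Atoh1 rose further (0.37 ± 0.07, adjusted p = 0.0130). This was not particular to AKFP, since AKF organoids differed from KO by a like amount in Atoh1 (0.39 ± 0.07), which did not pass (adjusted p = 0.308). Paneth markers rose in 5 of 7 genes, with Pla2g2a at 5.43 ± 0.11 SE (adjusted p = 1.96e-06) and the others that passed at 0.46 to 1.21. Against AKF organoids Pla2g2a differed by 5.18 ± 0.11, and what set this gene apart was not tested. Summed goblet markers were at 3070 to 3300 FPKM with AKFP, against 3040 to 3280 FPKM in KO.

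**Figure D4:**
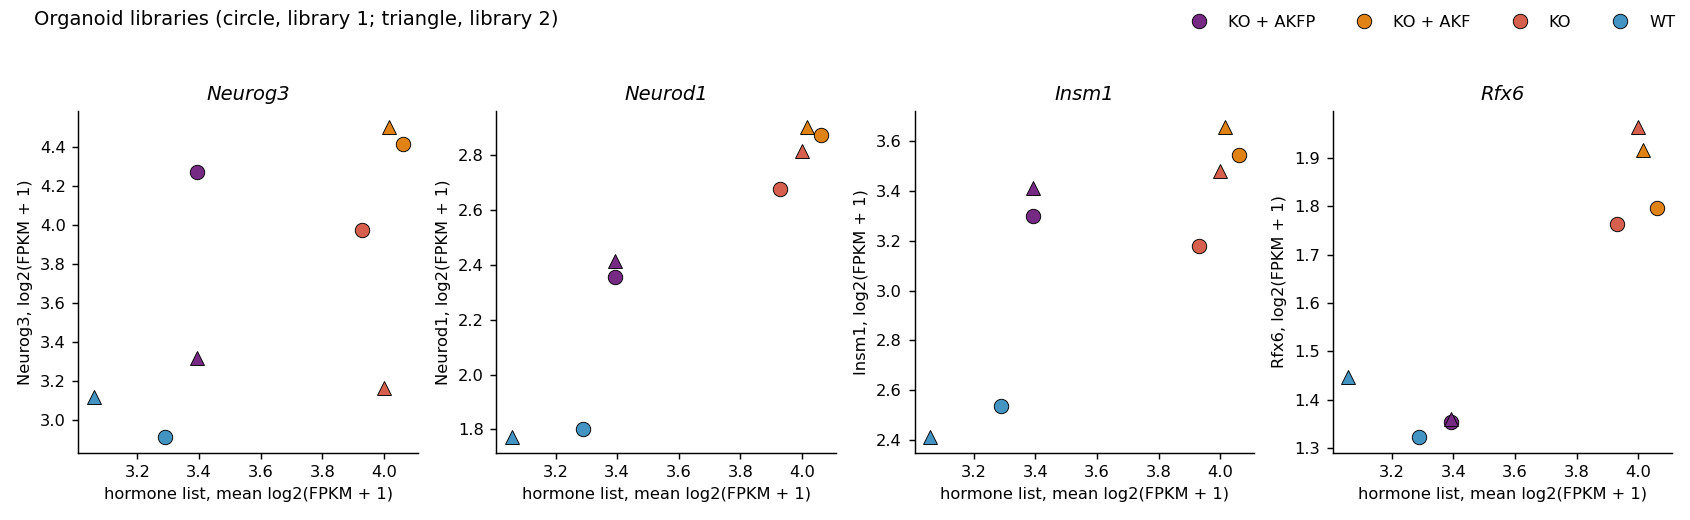
Level of Neurog3, Neurod1, Insm1 and Rfx6 in log2(FPKM + 1) against the mean log2(FPKM + 1) of the 20 hormone and granule genes, in the 8 organoid libraries. The AKFP libraries (3.39 on the horizontal axis in both) lie near WT in Rfx6 and near the KO libraries in Insm1. The horizontal mean hides opposite differences, as 6 of 19 tested hormone genes passed as higher and 6 as lower with AKFP against WT.

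In organoids labelled AKF, no factor passed the threshold against KO organoids. Neurog3 was at 20.3 and 21.7 FPKM with AKF, against 14.7 and 7.97 FPKM in KO, and Insm1 at 10.7 and 11.6 FPKM, against 8.05 and 10.2 FPKM. Neurod1 was at 6.33 and 6.49 FPKM with AKF, against 5.40 and 6.05 FPKM in KO. In these 3 genes both AKF libraries were above both KO libraries (13.9% of all tested genes were). Rfx3 went the other way, at 0.792 and 0.288 FPKM with AKF, against 0.843 and 0.964 FPKM in KO. Yet 0 of 7 factors passed (0.0474% of all tested genes passed). Only Neurog3 had an unadjusted p under 0.05 (0.89 ± 0.35 SE, unadjusted p = 0.0375, adjusted p = 1). Of the 19 hormone genes 0 passed, with a median of 0.02 and an unadjusted p of 0.00578 for Iapp, the smallest.

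Against WT, AKF organoids had 5 of 7 factors higher, where 17.6% of all tested genes passed as higher. They were Neurod1 (1.10 ± 0.08 SE, adjusted p = 0.000379), Insm1 (1.13 ± 0.12, adjusted p = 0.000966), Rfx6 (0.47 ± 0.11, adjusted p = 0.0183), Neurog3 (1.45 ± 0.35, adjusted p = 0.0211) and Nkx2-2 (0.71 ± 0.17, adjusted p = 0.0213). Without WT library 1 or AKF library 2 only Neurod1 and Insm1 passed (2 of 7), and without WT library 2 only those and Rfx6 (3 of 7). With no filter Neurod1 and Insm1 passed (2). Between AKFP and AKF, which differ by Purb in their labels and by Ascl2, Klf9 and Fosb in the measured values above, with Purb overlapping, 4 factors were lower with AKFP, where 12.7% of all tested genes passed as lower. Neurod1 differed by -0.50 ± 0.08 (adjusted p = 0.00772), Rfx6 by -0.50 ± 0.11 (adjusted p = 0.0191), Nkx2-2 by -0.75 ± 0.17 (adjusted p = 0.0225) and Isl1 by -0.61 ± 0.15 (adjusted p = 0.0297). Insm1 was at 8.84 and 9.64 FPKM with AKFP, against 10.7 and 11.6 FPKM with AKF (-0.25 ± 0.12, adjusted p = 0.155). Without AKF library 1 the calls were on Nkx2-2 and Neurod1 (2), and without AKF library 2 or AKFP library 2 on Neurod1 alone (1). With no filter too the call was on Neurod1 alone (1).

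Ordered by mean level in organoids, Neurog3 was highest with AKF (21.0 ± 0.989 FPKM), then with AKFP (13.7 ± 6.64 FPKM), in KO (11.3 ± 4.76 FPKM) and in WT (7.10 ± 0.820 FPKM; SD, n = 2 each). The AKFP and KO libraries overlapped in that order. Insm1 had the same order of groups, with AKFP and KO overlapping. Isl1 was lowest with AKFP, and there AKFP overlapped WT.

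Some values rest on genes whose neighbours overlap them, and whether strand was used in counting is not given in the sources used here. Neurog3 (chr10:62133090-62134763, + strand, mm10) overlaps Fam241b on the other strand. Neurod1 (chr2:79452521-79456751, − strand) overlaps Cerkl on its own strand and Gm26755 on the other. Nkx2-2 (chr2:147177546-147194243, − strand), Pax6 (chr2:105668900-105697364, + strand) and Rfx3 (chr19:27761721-28011166, − strand) overlap antisense genes. Values of these 5 genes are uncertain to that extent. Insm1 (chr2:146221921-146225020, + strand), Rfx6 (chr10:51677756-51730432, + strand), Isl1 (chr13:116298281-116309689, − strand) and Pax4 (chr6:28442334-28449353, − strand) have no overlapping gene in the annotation used.

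Genes whose levels were most like those of each factor were looked up by Pearson's r of log2(FPKM + 1), as a description over libraries that share groups and depth. Over the 12 tissue libraries and 10800 genes, Neurod1 and Insm1 were each other's nearest gene (r = 0.987). After each other, Neurod1 was nearest to Cpe and Prnp (r = 0.982 and 0.981) and Insm1 to Cdk5r2 and Trim62 (r = 0.974 and 0.973). The 3 nearest to Isl1 were Hepacam2, Prnp and Syt13 (r = 0.982 to 0.976), to Rfx6 Kcnh6, Peg3 and Myt1 (r = 0.974 to 0.972), to Nkx2-2 Baiap3, Celf3 and Gng4 (r = 0.959 to 0.957), and to Pax4 Baiap3, Wdfy1 and Nkx2-2 (r = 0.908 to 0.896). Neurog3 had Ubfd1, Tle1 and Slc25a35 as its nearest genes (r = 0.912 to 0.897), and Rfx3 had Rpe, Homer1 and Szrd1 (r = 0.878 to 0.867). Over the 8 organoid libraries the nearest genes were others. They were Areg, Lrrfip1 and Cyp26b1 for Neurod1 (r = 0.995 to 0.993), Mcl1, Lpar1 and Aunip for Insm1 (r = 0.986 to 0.979), and Ube2l6, Oas1a and Igtp for Rfx6 (r = 0.988 each). Nkx2-2 had Pappa2, Ncoa7 and Hap1 (r = 0.977 to 0.965), Isl1 had Fxyd6, Trim41 and Wwc2 (r = 0.975 to 0.966), Neurog3 had Dusp9, Tmem141 and Ap4b1 (r = 0.967 to 0.956) and Rfx3 had Stat5a as its nearest (r = 0.937).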

How the data were processed

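The genome build mm10 and the tools StringTie 1.3.3b and HISAT2 2.1.0 are named in the submitters' processing notes, and what each did is not given in the sources used here. The deposited tissue values are FPKM per gene. The authors' organoid table names no unit in its header and was taken as FPKM from its 54838 rows and range. Symbols and positions came from GENCODE M21 (54723 of 54838 IDs matched). Values were analysed as log2(FPKM + 1) with limma 3.58.1 (R 4.3.3, trend), over genes at 1 FPKM or more in at least 2 libraries of a fit. The tissue fit used 10 libraries (12899 genes; day 3 was left out, having 1 library per gate) and the organoid fit 8 (12657 genes). Benjamini-Hochberg adjusted p under 0.05 was the threshold. Scripts were tested on simulated data. FPKM divides by depth, so a group of very abundant transcripts lowers all other values of a library, and depth could only be estimated. The naming rule took all 9 members in every comparison, from each other list the genes that passed (at most 5 by p) or else the gene of smallest p, and beside each member its 3 most similar genes. The text gives part of these singly and the rest by counts and medians. Chga in organoids, and Pyy and Gcg in the comparison of AKFP with KO, were named with their values known. Some genes that these rules name are not reported here. The members and all gene lists were chosen with earlier results of these data known.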

Additional observations from a re-analysis of the deposited data

How the results depend on the processing

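Alternatives were 0.1 or 0.5 added before the log, no filter, only the compared groups in the fit, median-of-ratios scaling, equal FPKM sums, the replicate block, and leaving out each library. The median log2 difference of all genes was -0.46 with equal FPKM sums in the day 6 comparison with WT Lgr5-high cells, against -0.16 as deposited. In that comparison the number of factors past the threshold (1) became 0 with no filter, 2 with the compared groups alone, 3 with median-of-ratios scaling, 0 with equal sums, 2 with the replicate block and 0 to 3 with a library left out. Left-out libraries gave 0 to 4 at day 4 averaged over gates, 0 to 3 for AKFP against KO, 2 to 6 for AKF against WT (2 with no filter) and 1 to 4 for AKFP against AKF (1 with no filter, 2 with the compared groups alone). The labels do not say whether library numbers pair libraries. Deviations of same-numbered libraries correlated at 0.0243 to 0.52 in tissue, all positive, and at -0.0392 to 0.0911 in organoids. In tissue the value was 0.439 between the WT gates and 0.339 between the day 4 gates. The main fit treated all libraries as independent, and the replicate block changed no count of factors but that of day 6. The cause of these changes was not tested.

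With a library left out, the difference ranged for AKFP against KO from -0.13 to 0.18 in Insm1 and -0.25 to 0.71 in Neurog3. For AKFP against WT it ranged from -0.23 to 0.15 in Nkx2-2, -0.09 to 0.03 in Rfx6 and -0.36 to 0.04 in Isl1, and for Rfx6 in day 4 Lgr5-high cells from -0.09 to 1.60. The day 3 medians ranged from -0.06 to 0.60 in Lgr5-high and from -0.04 to 0.57 in Lgr5-low cells. Over all genes, 136 passed in day 4 Lgr5-high cells, against 0 with the compared groups alone, 29 with no filter and 34 with equal sums. Isl1 and Pax4 in organoids rest on few fragments, which limits what could be detected there.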

Other observations

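The letters GGACT, a common form of the context in which mRNA carries N6-methyladenosine, were counted in the longest protein-coding transcript of each factor (GENCODE M21). Density ranged from 0 per kb in Insm1, whose 3100-base transcript holds none, to 4.38 per kb in Pax4, more than in 99.7% of the tested genes with a coding transcript. Neurog3 had 1.3 per kb, Isl1 1.19, Neurod1 1.10 and Rfx6 0.577. The median was 1.19 per kb over the 9 factors, against 1.05 per kb over 11138 tested genes. No methylation was measured here, and a count of letters is not a count of modified sites.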
